A study of Mus musculus with 6 samples.

Results

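The collagen genes of mouse inguinal white adipose tissue (iWAT), the subcutaneous fat pad of the groin, were compared between Zip13-KO and WT mice. They were chosen by name, as every gene whose RefSeq symbol is Col, a number, the letter a and a number. The arrays carried 64 probes for 44 such genes, out of 55681 probes and 21368 named genes. Total RNA from 3 WT and 3 Zip13-KO mice had been hybridised to 6 single-colour Agilent arrays, which lay on 1 slide and were scanned together. Zip13-KO mice lacked exons 6 to 8 of Zip13 (Slc39a13), a zinc transporter, in every cell of the body, with a Neo cassette in their place. The targeted cells were R1 embryonic stem cells. Both genotypes had been backcrossed to C57BL/6J for at least 7 generations and were fed powdered food, since the knockout mice have missing teeth. The study describes the controls as WT littermates, and its legends give an age of 10 weeks. Sex is not given, and the housing notes name a standard and a high-fat diet without saying which one these mice ate.

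Collagens are secreted proteins whose chains wind into helical trimers, and each gene encodes one kind of chain. Fibrillar collagens (types I, III, V and XI among them) form the rope-like fibrils of connective tissue. Type IV collagen forms the sheet-like network of basement membranes, which in fat surround each adipocyte and each capillary. Type VI builds beaded filaments around cells, and FACIT collagens sit on the surface of fibrils. Fibroblasts and stromal progenitors are the main source of fibrillar collagen in adipose tissue, while adipocytes and endothelial cells also make type IV.

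The label of the knockout held on the arrays. Slc39a13 had log2 intensities of 11.29, 10.87 and 10.72 in WT 1, 2 and 3, and of 6.76, 6.66 and 6.47 in Zip13-KO 1, 2 and 3. The genotypes did not overlap, with a log2 fold change of -4.33 ± 0.17 (SE, n = 3 per genotype; limma adjusted p = 0.00128). Where its probe lies relative to the deleted exons was not checked here. Well-above-background spots made up 58.8 to 63.2% of each array, and no spot was saturated. The WT arrays resembled each other less (r = 0.986 to 0.993 across genes) than the Zip13-KO arrays did (0.994 to 0.995), and WT replicate 1 stood apart in the collagens. The labels number the arrays as replicates, and the study's legend for these data counts mice. All 8 adipocyte markers, Adipoq, Plin1 and Fabp4 among them, were measured well above background.

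Each gene was tested on the brightest of its usable probes, those measured well above background in the whole set of 3 WT arrays, of 3 Zip13-KO arrays, or both. By this filter 33 of the 44 collagen genes were tested, and 11 were not. A gene was called when its adjusted p was under 0.05 and its change exceeded 1.5-fold. Among the 33 tested genes, 5 were called (15.2%), against 18.7% of the 15302 genes tested in all. Col12a1, Col18a1 and Col26a1 fell, which is 9.09% of the tested collagens beside 8.38% of all genes. Col4a3 and Col20a1 were called higher, which is 6.06% beside 10.3%. Of these, Col4a3 passed the filter through the Zip13-KO arrays alone, and with a filter on all 6 arrays Col20a1 was the 1 rise left. These shares are near those of all genes. The 3 falls became 6 without WT replicate 3 and 1 without Zip13-KO replicate 2, and the 2 genes called higher became 1 without any single Zip13-KO array. The filter passes genes that are high in 1 genotype alone, so the counts describe the genes that passed.

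Signs were less even than calls. Of the 33 tested collagens, 23 had a log2 fold change below 0 and 10 above 0, and the median was -0.45 beside -0.0004 over all genes. The fibrillar collagens had a median of -0.47, the type IV collagens of 0.14, and the 19 tested members of the other classes of -0.55. In 6 tested collagens (18.2%) the highest Zip13-KO value was below the lowest WT value, a pattern found in 25.9% of all genes. The opposite pattern held in 3 collagens (9.09%), beside 29.2% of all genes. The genotypes overlapped in the other 24. Both shares are below those of all genes, although the median was lower.

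The overlap came with wide spread among WT arrays. The WT SD exceeded the Zip13-KO SD in 27 of 33 collagens, with median SDs of 0.50 and 0.18. Over all genes the WT median SD was also the larger, at 0.16 beside 0.10. WT replicate 1 was the highest of all 6 arrays for 18 of 33 collagens (54.5%), against 25.7% of all genes with a value on every array. The plot of values by array shows these 18 genes as dark squares to the right of every other symbol.

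**Figure D1:**
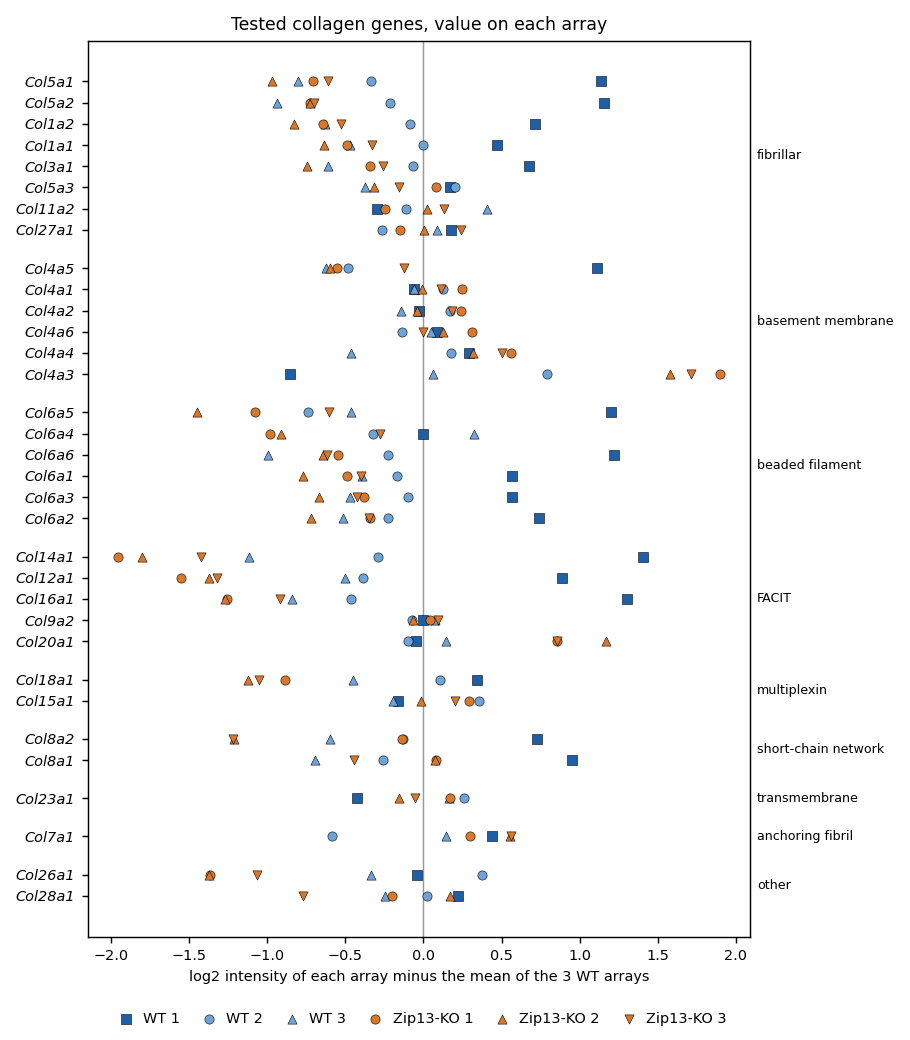
Log2 intensity of each of the 33 tested collagen genes on each of the 6 arrays, minus the mean of the 3 WT arrays of that gene (blue symbols WT, orange symbols Zip13-KO; rows grouped by class). WT replicate 1 (dark square) is the highest of the 6 arrays for 18 genes, most of them fibrillar, beaded filament or FACIT collagens, whereas Col4a1 and Col4a2 stay close to 0 on every array.

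The fibrillar collagens form the load-bearing fibrils, and 8 of their 11 genes were tested. None of the 8 was called by limma, none had an unadjusted p under 0.05, and the methods' t-test gave none either. Col1a1 and Col1a2 encode the chains of type I collagen, the main fibril protein of connective tissue. Col1a1 had log2 intensities of 15.44, 14.97 and 14.50 in WT 1, 2 and 3 and of 14.48, 14.34 and 14.64 in Zip13-KO 1, 2 and 3. Col1a2 had 17.56, 16.75 and 16.21 in WT and 16.20, 16.01 and 16.31 in Zip13-KO. For both genes WT 1 was highest, WT 2 second, and WT 3 lay within the Zip13-KO range. The log2 fold changes were -0.48 ± 0.24 for Col1a1 (SE; adjusted p = 0.160) and -0.67 ± 0.33 for Col1a2 (adjusted p = 0.158).

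Col3a1, the chain of type III collagen, which shares fibrils with type I in soft tissue, had 16.76, 16.02 and 15.47 in WT and 15.74, 15.33 and 15.82 in Zip13-KO. Col5a1 encodes a chain of type V collagen, which starts fibrils and limits their width. Its values were 13.42, 11.95 and 11.48 in WT and 11.58, 11.32 and 11.68 in Zip13-KO, so that WT 1 stood 1.71 above the mean of WT 2 and WT 3. Its partner Col5a2 showed the same order of WT arrays, at 10.41, 9.05 and 8.32, beside 8.53, 8.53 and 8.56 in Zip13-KO. Col5a1 had the lowest fibrillar fold change, -0.76 ± 0.48 (adjusted p = 0.257). Col27a1, a fibrillar collagen of cartilage, had the highest, 0.03 ± 0.16 (adjusted p = 0.892), and its interval of -0.35 to 0.41 holds changes in either direction. The third type V chain, Col5a3, which adipose tissue is known to express, had 14.20, 14.24 and 13.66 in WT and 14.11, 13.72 and 13.88 in Zip13-KO. Unlike Col5a1 and Col5a2, it was not highest in WT 1, and its log2 fold change of -0.13 turned to 0.01 with scaling by the 75th percentile.

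The size of the fibrillar difference depended on single WT arrays. Without WT replicate 1 the class median moved from -0.47 to -0.16, with Col1a1 at -0.25, Col1a2 at -0.31, Col3a1 at -0.11 and Col5a1 at -0.19. Without WT replicate 3 it moved to -0.74, and Col1a1 (-0.72, adjusted p = 0.0375) and Col1a2 (-0.98, adjusted p = 0.0441) were called. The class median stayed below 0 in both cases. The median of the other classes moved in the same way, from -0.55 to -0.25 without WT replicate 1 and to -0.73 without WT replicate 3. In all, 24 of the 33 tested collagens lay nearer to 0 without WT replicate 1.

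**Figure D2:**
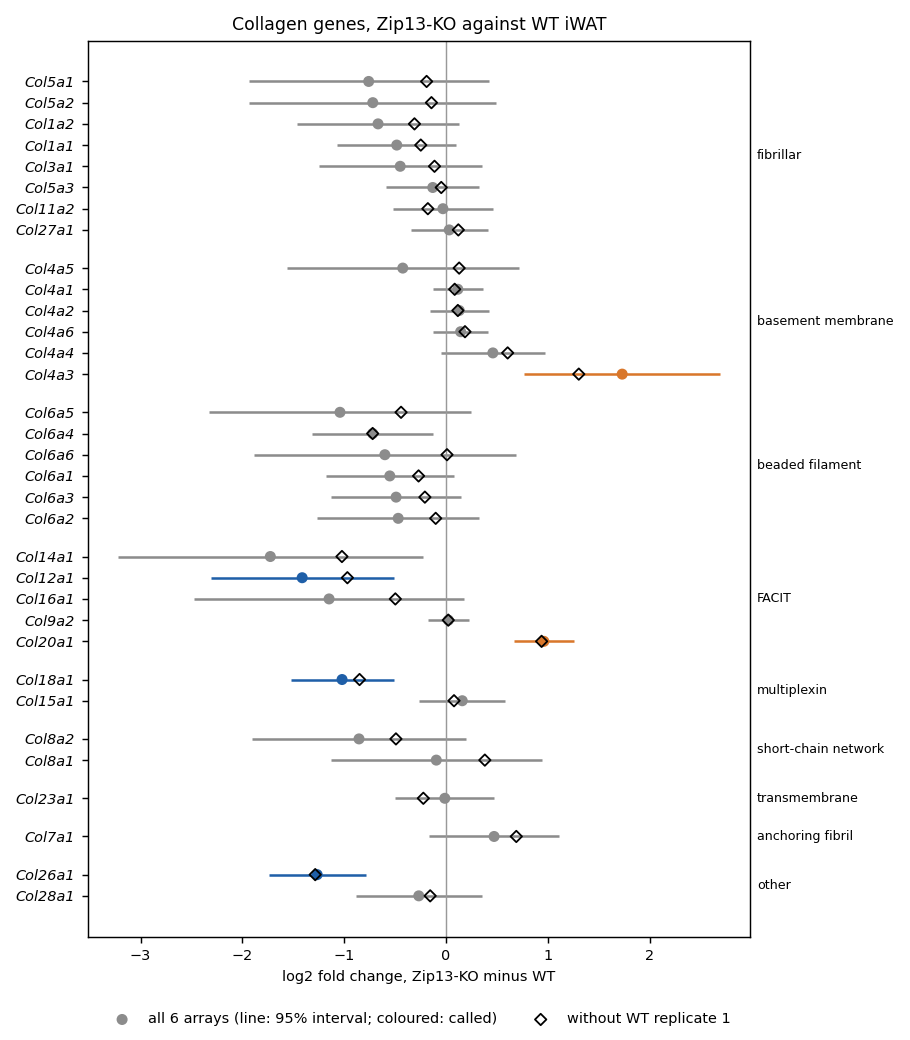
Log2 fold change (Zip13-KO minus WT) of the 33 tested collagens with all 6 arrays (filled circles, with 95% intervals as lines; blue called lower, orange called higher, grey not called) and without WT replicate 1 (open diamonds). The 5 called genes have intervals away from 0 and diamonds on the same side, and the diamonds of most fibrillar and beaded filament collagens lie nearer to 0 than the circles.

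Promoter sequences are given for Col1a2 of type I and Col3a1 of type III, whose values moved together across arrays. Any part of the promoters in this was not tested. They are RefSeq windows of 300 bases, from 250 before to 50 after the annotated start, on GRCm38.p6. Windows were found for 35 of the 44 collagens, Col1a1 not among them, and some genes have more than 1, giving 38 in all. Those of Col1a2 (chr6:4505368-4505667, plus strand) and Col3a1 (chr1:45311288-45311587, plus strand) read 5′ to 3′ as follows. Capitals mark, on either strand, the letters CCAAT of the CCAAT box, the letters GGGCGG of the GC box and the letters TATAAA of the TATA box.
Col1a2: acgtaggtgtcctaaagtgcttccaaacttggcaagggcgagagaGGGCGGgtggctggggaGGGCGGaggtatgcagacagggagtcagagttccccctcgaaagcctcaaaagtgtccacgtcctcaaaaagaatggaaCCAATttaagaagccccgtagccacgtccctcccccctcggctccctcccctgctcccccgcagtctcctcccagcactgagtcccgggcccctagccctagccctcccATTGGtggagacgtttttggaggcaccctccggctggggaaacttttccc
Col3a1: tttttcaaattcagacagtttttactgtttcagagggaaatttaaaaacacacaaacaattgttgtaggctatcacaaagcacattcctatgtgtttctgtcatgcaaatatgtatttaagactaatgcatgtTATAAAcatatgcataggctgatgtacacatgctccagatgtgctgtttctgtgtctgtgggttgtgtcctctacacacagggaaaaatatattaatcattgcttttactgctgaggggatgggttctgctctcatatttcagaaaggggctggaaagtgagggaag
The Col1a2 window held CCAAT 109 bases before the start and, on the other strand, at the start itself, and GGGCGG 205 and 188 bases before it. The Col3a1 window held TATAAA 117 bases before the start and neither of the other motifs. CCAAT occurred in 34.2% of collagen windows and 37.4% of all 32851 windows, TATAAA in 13.2% and 13.6%, and GGGCGG in 60.5% and 35.7%. The 38 windows include several of the same gene and overlapping windows, and these shares are a description only.

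All 6 type IV collagen genes were tested, 5 had a log2 fold change above 0, and 1 was called. The difference from the fibrillar class was not tested. The 6 genes lie in the genome as 3 pairs that start next to each other and are read in opposite directions: Col4a1 with Col4a2, Col4a3 with Col4a4, and Col4a5 with Col4a6. Col4a1 and Col4a2 encode the chains of the common network found in nearly all basement membranes. Their promoter windows (Col4a1, chr8:11312777-11313076, minus strand; Col4a2, chr8:11312555-11312854, plus strand; GRCm38.p6, RefSeq) share 78 bases. These are shown in capitals, and each sequence is read on the strand of its own gene, so that the shared stretch of one is the reverse complement of the other.
Col4a1: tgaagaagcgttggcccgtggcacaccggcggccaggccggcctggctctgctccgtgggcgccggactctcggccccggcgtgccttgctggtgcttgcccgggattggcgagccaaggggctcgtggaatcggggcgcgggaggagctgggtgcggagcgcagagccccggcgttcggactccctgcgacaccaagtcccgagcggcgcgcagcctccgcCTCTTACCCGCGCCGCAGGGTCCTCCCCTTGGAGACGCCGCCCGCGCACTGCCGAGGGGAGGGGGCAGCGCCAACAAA
Col4a2: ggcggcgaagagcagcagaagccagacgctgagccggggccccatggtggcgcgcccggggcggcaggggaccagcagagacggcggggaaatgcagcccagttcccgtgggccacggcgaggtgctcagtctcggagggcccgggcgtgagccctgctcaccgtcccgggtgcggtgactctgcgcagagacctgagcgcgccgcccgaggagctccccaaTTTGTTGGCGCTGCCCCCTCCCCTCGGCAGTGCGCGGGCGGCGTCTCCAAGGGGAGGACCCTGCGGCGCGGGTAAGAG
Both windows held CCAAT and GGGCGG on at least 1 strand, and neither held TATAAA. The windows of Col4a5 and Col4a6 on the X chromosome do not overlap and are 842 bases apart.

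Col4a1 had log2 intensities of 13.01, 13.20 and 13.01 in WT 1, 2 and 3 and of 13.32, 13.06 and 13.19 in Zip13-KO 1, 2 and 3. Col4a2 had 12.84, 13.03 and 12.73 in WT and 13.11, 12.83 and 13.05 in Zip13-KO. Both genes were highest in Zip13-KO 1, higher in WT 2 than in the other WT arrays, and the genotypes overlapped. The log2 fold changes were 0.12 ± 0.10 (SE; 95% interval -0.13 to 0.36; adjusted p = 0.402) and 0.13 ± 0.12 (-0.16 to 0.42; adjusted p = 0.426). Both intervals lie within the 1.5-fold threshold of 0.58 in either direction. WT replicate 1, which was high for type I, III and V collagen, did not stand out here.

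Col4a3 and Col4a4 encode chains of the type IV network best known from kidney glomeruli. Col4a3 had 2.28, 3.92 and 3.19 in WT and 5.03, 4.71 and 4.84 in Zip13-KO, and every Zip13-KO array was above every WT array. Its signal was weak, well above background on 1 of 3 WT arrays and on 3 of 3 Zip13-KO arrays, so that it passed the filter through Zip13-KO alone and the size of its change is not well measured. The fitted log2 fold change was 1.73 ± 0.40 (adjusted p = 0.0214). With normexp background correction the change was 0.36, and in the authors' own normalized values 0.51, neither past the fold threshold. It was also not called when Zip13-KO 1, 2 or 3 was left out (adjusted p = 0.0744, 0.0604 and 0.0604), although the fold change stayed between 1.65 and 1.81 in those fits.

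The neighbour Col4a4 had 6.99, 6.87 and 6.23 in WT and 7.26, 7.02 and 7.20 in Zip13-KO on its brightest probe, again without overlap. That probe gave 0.46 ± 0.21 (adjusted p = 0.133), and a second, dimmer probe gave 1.02 ± 0.25 (adjusted p = 0.0254 over all kept probes). The second probe had 3.91, 4.03 and 3.37 in WT and 5.22, 4.52 and 4.63 in Zip13-KO. It was well above background on 2 of 3 WT and 3 of 3 Zip13-KO arrays, so it too passed the filter through Zip13-KO alone. With the mean of both probes Col4a4 was called (0.74, adjusted p = 0.0437), a call that rests in part on the dimmer one.

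Col4a5 and Col4a6 encode the chains of another network, found for example in skin and around smooth muscle. Col4a5 was the type IV gene with the lowest fold change, with 9.25, 7.66 and 7.52 in WT and 7.59, 7.54 and 8.02 in Zip13-KO. WT 1 alone stood above the other 5 arrays, and the log2 fold change was -0.43 ± 0.47 (adjusted p = 0.507) with all arrays and 0.13 without WT replicate 1. Col4a6 was measured by a pair of probes that differed in sign, 0.14 on the brighter and -0.23 on the dimmer one, and on the dimmer one WT 1 was again highest, at 5.66 beside 4.06 to 4.97 on the other arrays. Among the 6 type IV genes, WT 1 was thus above all other arrays on the tested probe for Col4a5 alone.

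**Figure D3:**
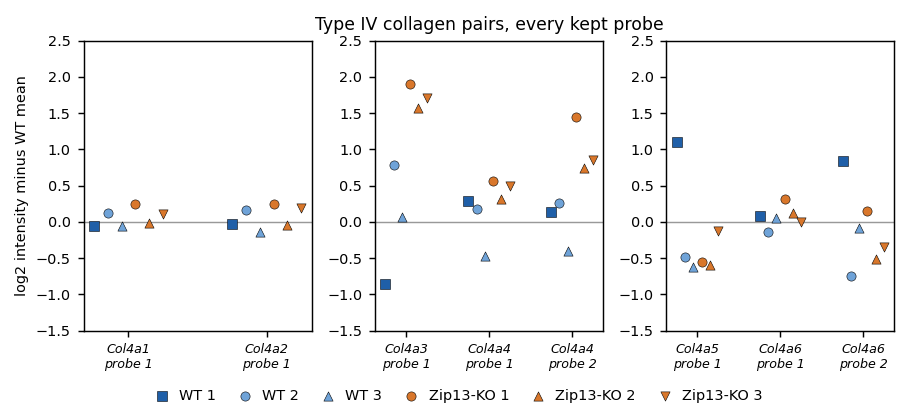
Log2 intensity on each array minus the WT mean for every kept probe of the 6 type IV collagen genes, in 3 panels by neighbouring pair (blue WT, orange Zip13-KO; probe 1 is the brightest). Col4a1 and Col4a2 lie near 0 on every array, Col4a3 and both Col4a4 probes are higher on all Zip13-KO arrays than on any WT array, and WT replicate 1 (dark square) is high for Col4a5 and the second Col4a6 probe.

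Type VI collagen forms the beaded filaments of the space around cells and is abundant in fat. All 6 of its genes were tested, and all 6 had a log2 fold change below 0, from -1.04 to -0.47 with a median of -0.58. None was called by limma, 1 had an unadjusted p under 0.05 (Col6a4), and the methods' t-test gave none. Col6a1, which encodes a chain of the common trimer, had 15.25, 14.51 and 14.29 in WT and 14.19, 13.92 and 14.29 in Zip13-KO. Its WT and Zip13-KO values met without crossing, at 14.29 on both sides, and the log2 fold change was -0.55 ± 0.26 (adjusted p = 0.142). Col6a2 (-0.47 ± 0.33, adjusted p = 0.297) and Col6a3 (-0.49 ± 0.26, adjusted p = 0.188), the other chains of that trimer, overlapped between genotypes and were highest in WT 1. Without that array Col6a1 was at -0.27, Col6a2 at -0.10 and Col6a3 at -0.21.

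The alternative chains of type VI varied more. Col6a5 had the lowest fold change, with 8.76, 6.82 and 7.10 in WT and 6.48, 6.11 and 6.96 in Zip13-KO (-1.04 ± 0.53, adjusted p = 0.170). Without WT replicate 1 it was -0.44, and Col6a6 went from -0.60 to 0.01. Col6a4 was the exception, since WT 1 was in the middle of its WT values: it had 7.14, 6.82 and 7.47 in WT and 6.17, 6.24 and 6.87 in Zip13-KO. Its log2 fold change was -0.72 ± 0.24 with all arrays (adjusted p = 0.0634), -0.72 without WT replicate 1, and -0.94 without Zip13-KO replicate 3, where it was called (adjusted p = 0.0357).

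FACIT collagens bind the surface of fibrils and link them to other matrix. Of their 9 genes 5 were tested, 1 fell, 1 rose, and the range was wide. Col12a1, a fibril-surface collagen of tendon, fascia and other loaded tissue, had 8.06, 6.79 and 6.67 in WT and 5.62, 5.80 and 5.85 in Zip13-KO. All Zip13-KO arrays were below all WT arrays, also with WT 1 set aside. The log2 fold change was -1.41 ± 0.37 (a 2.66-fold lower level; adjusted p = 0.0310), and -0.97 without WT replicate 1 (adjusted p = 0.00783). Leaving out Zip13-KO 1, 2 or 3 raised the adjusted p to 0.0973, 0.0841 and 0.0746, with fold changes of -1.46 to -1.35. The call was also lost with no filter on dim probes (adjusted p = 0.0636) and with the replicate number as a block (0.0631). With normexp the value was -0.87, still called (adjusted p = 0.0335).

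Col14a1, its close relative and a known product of stromal fibroblasts, had the lowest fold change of all collagens tested. Its values were 13.34, 11.65 and 10.82 in WT and 9.98, 10.14 and 10.52 in Zip13-KO, apart between genotypes but spread over 2.52 log2 units within WT. The log2 fold change was -1.73 ± 0.62 (adjusted p = 0.0736), so it was not called. It was called without WT replicate 3 (-2.28, adjusted p = 0.0312) and was -1.02 without WT replicate 1 (adjusted p = 0.0509). Col16a1 had 13.21, 11.45 and 11.07 in WT and 10.65, 10.64 and 10.99 in Zip13-KO, and its 3 probes gave -1.15 to -1.11, none of them called. Without WT replicate 1 it was at -0.50.

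Col20a1, a less studied FACIT member, went the other way. It had 6.61, 6.56 and 6.80 in WT and 7.51, 7.83 and 7.51 in Zip13-KO. The WT arrays were close together, all Zip13-KO arrays were above them, and the log2 fold change was 0.96 ± 0.12 (1.95-fold higher; adjusted p = 0.00613), and 0.63 with normexp, still called. A second probe gave 0.78 ± 0.14 (adjusted p = 0.0124 over all kept probes). Col9a2, a cartilage collagen, had 0.02 ± 0.08 (interval -0.17 to 0.22).

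The multiplexins Col15a1 and Col18a1 belong to basement membrane zones. Col18a1, whose end fragment is endostatin, had 12.25, 12.01 and 11.46 in WT and 11.02, 10.78 and 10.85 in Zip13-KO. The Zip13-KO arrays were all below the WT arrays, and the log2 fold change was -1.02 ± 0.21 (a 2.03-fold lower level; adjusted p = 0.0154). Its second probe gave -1.08 ± 0.22 (adjusted p = 0.0165 over all kept probes). The value was -0.85 without WT replicate 1 (adjusted p = 0.0259) and -0.97 without Zip13-KO replicate 2, the 1 fit of those leaving out an array in which it was not called (adjusted p = 0.0576). Col15a1 had 6.95, 7.47 and 6.92 in WT and 7.41, 7.10 and 7.32 in Zip13-KO, with 0.16 ± 0.17 (adjusted p = 0.503) and all 3 probes above 0. The pair therefore differed in sign, a difference that was not tested.

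Col26a1, a small collagen first described in testis and ovary, fell with the lowest adjusted p among the called falls. It had 6.59, 7.00 and 6.29 in WT and 5.26, 5.25 and 5.56 in Zip13-KO. The genotypes were 0.73 apart at their nearest arrays, and WT 1 was between the other WT values. The log2 fold change was -1.27 ± 0.20 (a 2.40-fold lower level; adjusted p = 0.00839), and -1.29 without WT replicate 1. It was smaller, though still called, in the authors' normalized values (-0.77) and with normexp background correction (-0.59, just past the fold threshold). Col26a1 and Col20a1 were called in every fit that left out 1 array.

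The remaining classes gave no call. The short-chain network collagens Col8a1 and Col8a2, products of vessel walls and the cornea, had -0.10 ± 0.43 and -0.86 ± 0.43 (adjusted p = 0.877 and 0.166). Both were highest in WT 1, and without it Col8a1 went to 0.38 and Col8a2 to -0.49. Col8a2 was well above background on 1 of 3 Zip13-KO arrays, and its value was -0.17 in the authors' normalized values and -0.03 with normexp. Col7a1, the anchoring fibril chain that ties epidermal basement membrane to the dermis, had 0.47 ± 0.26 (adjusted p = 0.202). Col23a1, a transmembrane collagen, had a pair of probes that differed in sign, -0.01 ± 0.20 on the brighter and 0.01 ± 0.12 on the dimmer one. Col28a1, a collagen of peripheral nerve, was well above background on 3 of 3 WT arrays and on no Zip13-KO array. For a bound, Zip13-KO values under the lowest well-above-background signal of their array were raised to that signal. The WT mean was 1.02-fold above the Zip13-KO mean found in this way. The measured values overlapped, with Zip13-KO 2 (4.04) above WT 2 (3.90) and WT 3 (3.63), and the adjusted p was 0.441.

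The 11 collagen genes not tested were Col2a1, Col11a1 and Col24a1 of the fibrillar class, Col9a1, Col9a3, Col19a1 and Col22a1 of the FACITs, Col10a1 of the short-chain class, and the transmembrane Col13a1, Col17a1 and Col25a1. Type II, IX, X and XI collagen are known from cartilage and type XVII from skin. For 8 of the 11 no array was well above background on the brightest probe. Col24a1 and Col9a1 were well above background on 1 WT array each. Col22a1 was so on 2 WT arrays and on no Zip13-KO array, and it passed the filter, through WT alone, in the fit without WT replicate 1.

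Genes that modify, fold, export, cut, cross-link or bind collagen were examined as 7 lists. Dcn, of the fibril-associated list, is also a stromal marker and is left out of the totals here. It was not called, and the refits kept it in. The lists held 69 other genes, of which 66 were tested. Of these, 6 fell (9.09%, beside 8.38% of all genes) and 2 rose (3.03%, beside 10.3%), and the median was -0.34. All Zip13-KO arrays lay below all WT arrays for 23 of the 66 (34.8%, beside 25.9% of all genes) and above them for 5 (7.58%, beside 29.2%). The count of 6 was unstable: it was 3 without WT replicate 1, 16 without WT replicate 3, and 1 without WT replicate 2 or any single Zip13-KO array. WT 1 was the highest WT array for 50 of the 66, beside 5478 of 15300 genes with a value on every array.

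The enzymes of early chain assembly gave few calls. Prolyl and lysyl hydroxylases, collagen galactosyltransferases and their partners (15 genes) had a median of -0.34, and 13 were below 0. Colgalt2, which adds galactose to hydroxylysine, rose from 4.83, 5.11 and 5.28 in WT to 6.09, 5.64 and 6.07 in Zip13-KO (0.86 ± 0.17, adjusted p = 0.0143). P3h3, a prolyl hydroxylase family member, was the lowest at -0.61 (adjusted p = 0.203). None of the 9 chaperone and export genes was called, with 2 at an unadjusted p under 0.05 in limma and 2 in the methods' t-test, and their values ran from -0.99 for Fkbp10, a collagen prolyl isomerase, to 0.22 for Tmem38b, an ion channel of the endoplasmic reticulum.

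The procollagen processing, lysyl oxidase and fibril-associated lists had lower medians, at -0.68, -0.81 and -0.84. Of 6 tested procollagen processing genes 5 were below 0, and Pcolce2, an enhancer of propeptide removal, fell from 11.64, 11.66 and 11.02 in WT to 10.66, 10.69 and 10.95 in Zip13-KO (-0.67 ± 0.20, adjusted p = 0.0433). Adamts2, the protease that removes N-propeptides, was the lowest (-0.94, adjusted p = 0.0849) and Tll1 the highest (0.15). All 5 lysyl oxidases, the enzymes that cross-link collagen, were below 0, from Loxl4 to Lox (-0.27). Loxl4 had 7.14, 6.43 and 5.97 in WT and 5.22, 5.21 and 5.87 in Zip13-KO (-1.08 ± 0.33, adjusted p = 0.0498), just under the threshold.

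Fibril-associated proteins had the lowest median of the 7 lists, -0.84. Thbs2, a matricellular protein whose loss alters fibril shape, had 12.03, 10.27 and 9.85 in WT and 8.60, 8.57 and 9.02 in Zip13-KO (-1.99 ± 0.55, adjusted p = 0.0371). Fn1, the fibronectin on which fibrils assemble, had 15.96, 15.37 and 14.65 in WT and 14.12, 14.08 and 14.41 in Zip13-KO (-1.12 ± 0.32, adjusted p = 0.0414). Both fell with WT 1 as the highest array, whereas Sparc, a collagen chaperone and binding protein, was the highest of the list at 0.08 (adjusted p = 0.441).

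Collagen receptors moved both ways. Lair1, an inhibitory collagen receptor of leukocytes, fell from 9.75, 9.73 and 9.47 to 8.20, 8.59 and 8.65 (-1.17 ± 0.15, adjusted p = 0.00627). Ddr2, the receptor tyrosine kinase of fibroblasts for fibrillar collagen, fell by 0.69 on the log2 scale (SE 0.19, adjusted p = 0.0367). Itga1, the integrin subunit that binds type IV collagen, rose from 8.74, 9.27 and 9.28 to 9.80, 9.77 and 9.60 (0.62 ± 0.16, adjusted p = 0.0318).

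The basement membrane partners, which are laminins, nidogens and perlecan (Hspg2), lie in the same membranes as type IV collagen. None of the 14 was called, with 1 at an unadjusted p under 0.05 in limma and 1 in the methods' t-test, and the median was 0.09, with 8 above 0 and 6 below. The highest value was 0.87 for Lamc3, a laminin gamma chain (adjusted p = 0.134). The 1 with an adjusted p under the threshold was Lamb1, a laminin beta chain, with 0.36 ± 0.09 (adjusted p = 0.0264), below the 1.5-fold threshold.

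**Figure D4:**
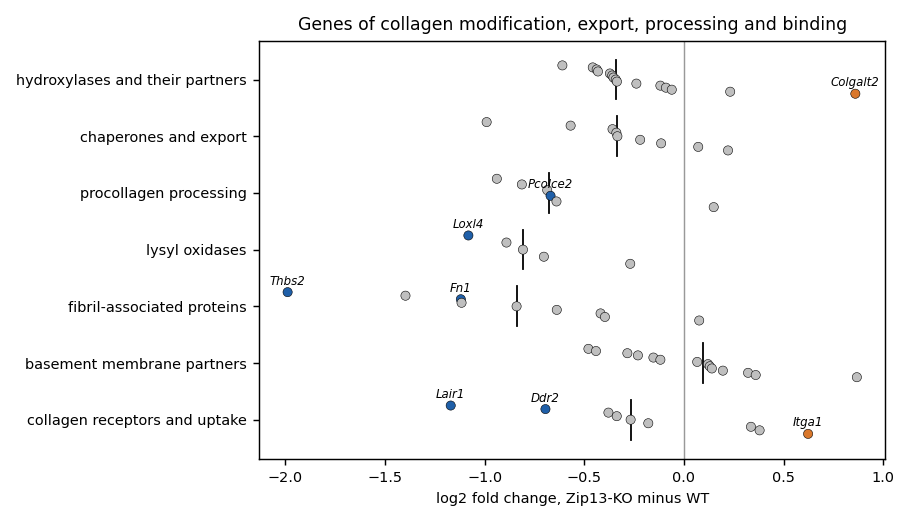
Log2 fold change (Zip13-KO minus WT) of Dcn and 66 other tested genes in 7 lists of collagen modification, export, processing, cross-linking and binding (points; blue called lower, orange called higher, grey not called; vertical bar, the list's median). The medians are lowest for fibril-associated proteins (-0.84) and lysyl oxidases (-0.81), and that of the basement membrane partners is 0.09.

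The lists of cell type markers differed in direction. The 10 markers of stromal progenitors and fibroblasts, Pdgfra, Dpp4, Pi16 and Dcn among them, were all highest in WT 1 among WT arrays. Their summed linear intensity was 300481, 219747 and 157849 in WT 1, 2 and 3 and 134128, 131574 and 154251 in Zip13-KO 1, 2 and 3. Dcn, the brightest of the 10 and also in the fibril-associated list, weighs most in these sums. It overlapped between genotypes and was not called (limma adjusted p = 0.191). The order of the WT arrays was that of Col1a1, Col1a2, Col3a1 and Col5a1. All 10 had a log2 fold change below 0 (median -0.73), and 4 fell (Ly6a, Dpp4, Thy1 and Pdgfra), beside 8.38% of all genes. All 7 macrophage markers were below 0, and 5 of them fell, again beside 8.38% of all genes. They summed to 107340, 74736 and 68211 in WT 1, 2 and 3, the same order of WT arrays as the stromal markers. In Zip13-KO they summed to between 34363 and 42142.

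In the adipocyte, endothelial and mural cell lists every marker had a log2 fold change above 0, with medians of 0.67, 0.44 and 0.48. All Zip13-KO arrays lay above all WT arrays for 7, 6 and 3 of these markers, beside 29.2% of all genes. Called higher were 3 of 8, 2 of 8 and 2 of 6 in the same order, shares above the 10.3% of all genes. The sums in Zip13-KO lay above those in WT. The 8 adipocyte markers summed to 367174, 500834 and 471038 in WT 1, 2 and 3 and to between 582971 and 611964 in Zip13-KO, with 3 rises. WT 1 was the lowest of the 6 arrays for every adipocyte marker, so it widens this gap. The 8 endothelial markers summed to between 24686 and 27756 in WT and between 36129 and 38340 in Zip13-KO, with 2 rises, and the 6 mural cell markers to between 14253 and 20606 and between 21054 and 21734, also with 2 rises. In whole tissue, fewer cells of a type cannot be told apart from less RNA per cell. The part of cell composition in the collagen values was not tested.

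The 5 remaining lists mark cells that a groin fat pad may carry along. No skeletal muscle (7 tested), mammary epithelium (4), lymph node (8) or Schwann cell (6) marker was called, with 0, 1, 6 and 2 at an unadjusted p under 0.05 in limma and 0, 0, 2 and 1 in the methods' t-test. All 7 tested skeletal muscle markers also had a log2 fold change above 0 (median 0.58), with overlap between genotypes in each. They summed to between 1008 and 2896 in WT and between 1613 and 5956 in Zip13-KO. All 8 lymph node markers were below 0 (median -0.38), 5 of them without overlap between genotypes (25.9% of all genes), and they summed to between 36557 and 46120 in WT and between 27902 and 32372 in Zip13-KO. Of 3 mesothelial markers tested, Lrrn4 rose (1.47, adjusted p = 0.0101), whereas Msln (-1.01, adjusted p = 0.0829) and Krt19 (-0.25, adjusted p = 0.738) were not called.

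**Figure D5:**
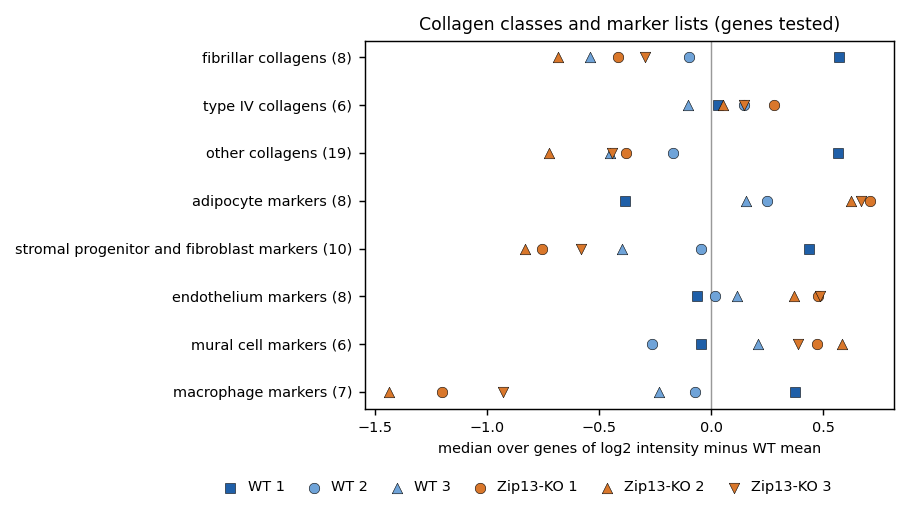
Median over genes of log2 intensity minus the WT mean, per array, for 3 groups of collagens and 5 lists of cell type markers (number of genes tested in brackets; blue WT, orange Zip13-KO). The fibrillar and other collagens and the stromal markers are highest in WT replicate 1 (0.57, 0.57 and 0.44), and type IV collagens stay between -0.10 and 0.28 on all 6 arrays.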

How the data were processed

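Scanner files from Feature Extraction 11.5.1.1 gave, per the file headers, a processed signal for each spot in intensity units, corrected by the authors' software for background and not normalized between arrays. The authors also deposited a table of normalized log2 values, which ranked probes as the raw median signal did. Here log2 of the processed signal was taken, control and outlier spots were left out, repeat spots were averaged by probe, and quantile normalization was applied across the 6 arrays. Probes were named by RefSeq accession (GRCm38.p6), which gave 28331 of 55681 a symbol, and 33041 passed the filter on dim probes. Genotypes were compared by lmFit and eBayes of limma 3.58.1 (R 4.3.3), over all 15302 genes and with Benjamini-Hochberg adjustment. No covariate was used, and the study's own test, which joins a t-test with a median-ratio test, was not rebuilt. The steps were tested on simulated data. An exact permutation test of 3 against 3 arrays cannot give a two-sided p below 0.1. With 3 arrays per genotype, their number limits the precision. Intervals are 95% intervals from the limma fit.

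The collagens and the other lists were chosen with earlier results of these data known. Genes named are the called collagens, the highest and lowest of each class, those dim in 1 genotype or with probes of opposite sign, the called genes and extremes of each pathway list, and Slc39a13. The lowest of 1 list is not reported here. Other collagens, marker genes and values of single arrays were named after they were seen. Alternatives changed the scaling, background correction, signal, dim-probe filter, choice of probe, variance model, replicate block, threshold and test, and left out each array in turn. Probe sequences and protein sequences were not used here.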

Additional observations from a re-analysis of the deposited data

How the results depend on the processing

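Under the 8 alternatives of processing and fit and the 6 fits that left out an array, the class medians kept their sign: fibrillar -0.74 to -0.16, type IV 0.07 (without Zip13-KO replicate 1) to 0.23 and other collagens -0.73 to -0.25. No class median moved by more than the spread between arrays. WT replicate 1 itself widens that spread for the fibrillar and other collagens, so this cannot judge the move when it is left out. Of the 3 collagens called lower and 2 called higher, 1 and 1 remained called after adjustment of the methods' t-test (Col26a1 and Col20a1), with the cause not tested. Collagens called higher numbered 1 with the deposited table, with normexp, with the filter on all 6 arrays (where Col4a3 was no longer tested) and with the replicate block. With no filter Col12a1 was not called. Leaving out 1 array gave 1 to 6 collagens called lower and 1 to 2 called higher.

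Pathway genes called lower numbered 1 with no filter on dim probes, with the replicate block and with the adjusted t-test, and 1 to 16 when 1 array was left out. Those called higher numbered 1 with the deposited table, the mean of a gene's probes, no filter, normexp or the replicate block, and 0 with the adjusted t-test (2 unadjusted). They numbered 0 to 3 when 1 array was left out, the 0 in limma without Zip13-KO replicate 1 (2 at an unadjusted p under 0.05). Over all genes, 1282 were called lower and 1576 higher. These became 2330 and 2952 without a fold threshold, 721 and 1008 with the adjusted t-test, and 780 to 1472 and 971 to 1663 when 1 array was left out.

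Genes near 0 changed sign, none of them called: Col11a2 (0.0234 with the deposited table, 0.0429 with normexp), Col23a1 (0.0462 and 0.0027 in the same order), Col4a6 (-0.0448 with the mean of its probes) and Col5a3 (0.0085 by the 75th percentile). When 1 array was left out Col11a2 ran from -0.18 to 0.17, Col23a1 from -0.22 to 0.12, Col27a1 from -0.10 to 0.12 and Col9a2 from -0.0126 to 0.0673. Col4a5 ran from -0.74 to 0.13, Col6a6 from -1.10 to 0.0093 and Col8a1 from -0.44 to 0.38, each highest without WT replicate 1.

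The replicate numbers of WT and Zip13-KO arrays did not pair them: deviations of same-numbered arrays correlated at -0.02, 0.04 and -0.08. With the number as a replicate block, 4 collagens were called lower and 1 higher, Col12a1 (adjusted p = 0.0631) and Col4a3 (0.0530) were no longer called, and Col6a4 (0.0357) and Col8a2 (0.0321) were, while 1051 and 1278 genes in all were called lower and higher. Weak signal limits Col4a3, Col8a2, Col28a1 and the 11 untested collagens.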
